A study of Mus musculus with 6 samples.

Results

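The transcripts described here encode the core of the DNA replication machinery and the enzymes that supply its deoxynucleotides: Mcm2, Mcm3, Mcm4, Mcm5, Mcm6 and Mcm7, Pcna, Rrm1, Rrm2 and Tyms. They were chosen by name, with earlier results of these data known, so counts of them beside the share of all probes are a description. Rows were taken whose platform gene symbol is one of these 10 genes, with a value on at least 4 of the 6 arrays. Each gene had 1 probe, and 8 of the 10 met the rule. Mcm4 and Mcm5 had no value on any array, so nothing is said of their ratios. The 8 stand among 9774 genes with a symbol that were measured on at least 4 arrays, on 11629 probes in all with those that lack a symbol.

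Amplified lung RNA of 6 C57 mice was measured. The mice had been sensitized to ovalbumin (OVA) and then challenged with it, a regimen that provokes allergic airway inflammation. Each mouse had its own two-colour array, hybridised against a single pool of amplified lung RNA from control C57 mice, and the labels give no age, sex, treatment of the controls or size of the pool. The comparison asks which transcripts differ between an OVA lung and that pool. Values are log2 ratios, each array centred on its median. The labels do not say which channel is the numerator. Titles put the OVA mouse first, yet transcripts known to increase in allergic lung lie on the negative side: the mucus genes Clca1 and Muc5ac had mean ratios of -3.06 and -2.63, and the macrophage genes Retnla and Arg1 -2.81 and -2.26. Ratios therefore keep their deposited sign, no sign is assigned to the OVA mice, and sizes are given as folds apart, read on a base of 2, which the sources used here do not state. The array of mouse 3 stood apart: its ratios had the smallest SD over all probes, 0.212 against 0.321 to 0.471 on the others, and those 4 response genes were at 0.84, 0.22, 1.00 and 0.14 there, on the side opposite to the other 5 mice. Means of the members and of the named list genes with negative means, where mouse 3 has a value, are therefore also given without it. Lower and higher refer to the deposited sign throughout.

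In a dividing cell the proteins encoded by Mcm2 to Mcm7 form a ring that is loaded on origins of replication and, once activated, unwinds the double helix ahead of the polymerases. The sliding clamp PCNA, encoded by Pcna, encircles DNA and tethers polymerases and many repair and chromatin factors. Ribonucleotide reductase, made of a large subunit encoded by Rrm1 and a small subunit encoded by Rrm2, converts ribonucleotides to deoxynucleotides, and thymidylate synthase, encoded by Tyms, makes the thymidine nucleotide. Many of these genes are transcribed as cells enter S phase under E2F factors, while most cells of an adult lung do not divide.

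Promoter sequences are shown first because the members that share a direction can be compared at the sites where E2F factors are known to bind. RefSeq promoter windows of GRCm38.p6, from 250 bases before to 50 bases after the start of transcription, were matched for 9 of the 10 genes, with 2 starts for Mcm7. The motifs searched on both strands were the E2F-type words TTTCGCGC, TTTGGCGC, TTTCCCGC and TTTGCCGC, and CCAAT, which reads ATTGG on the other strand. An E2F-type word occurred in the windows of 4 genes, Mcm3, Mcm5, Mcm6 and Mcm7, and in 2.26% of all 32851 windows. CCAAT occurred in 8 of the 9 genes, Tyms being the exception, and in 37.4% of all windows. The stretches of 30 bases below hold the E2F-type words of the 3 measured helicase genes that have one, with those words in capitals. CCAAT is not marked in these stretches, and it occurs in the second of Mcm6, as ATTGG, and in the last of Mcm7. In Mcm6 the first stretch holds an overlapping pair of E2F-type words on opposite strands.
Mcm3, chr1:20820265-20820294, minus strand: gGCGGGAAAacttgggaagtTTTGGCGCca
Mcm6, chr1:128359795-128359824, minus strand: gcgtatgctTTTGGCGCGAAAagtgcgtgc
Mcm6, chr1:128359734-128359763, minus strand: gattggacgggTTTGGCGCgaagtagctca
Mcm7, chr5:138172030-138172059, minus strand: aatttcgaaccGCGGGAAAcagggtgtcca
Mcm7, chr5:138171849-138171878, minus strand: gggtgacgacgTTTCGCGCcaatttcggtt

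The next pair of sequences sets the gene with the most negative mean ratio, Pcna, beside the gene with the mean nearest to 0, Mcm6. They are the 250 bases before each start, with E2F-type words and CCAAT in capitals.
Pcna, chr2:132253181-132253430, minus strand: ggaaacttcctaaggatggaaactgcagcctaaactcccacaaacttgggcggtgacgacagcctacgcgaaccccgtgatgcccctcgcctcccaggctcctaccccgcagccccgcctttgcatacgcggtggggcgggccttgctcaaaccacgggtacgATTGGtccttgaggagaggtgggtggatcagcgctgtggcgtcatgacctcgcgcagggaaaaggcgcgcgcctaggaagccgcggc
Mcm6, chr1:128359706-128359955, minus strand: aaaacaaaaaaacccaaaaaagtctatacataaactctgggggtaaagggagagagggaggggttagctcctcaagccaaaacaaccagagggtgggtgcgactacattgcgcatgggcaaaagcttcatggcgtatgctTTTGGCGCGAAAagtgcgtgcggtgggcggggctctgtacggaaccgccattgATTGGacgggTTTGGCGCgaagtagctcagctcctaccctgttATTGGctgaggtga

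Set beside the ratios that follow, E2F-type words were present for 2 of the 5 genes that passed the test, Mcm3 and Mcm7 (1 of its 2 windows), and absent for the other 3, Pcna, Rrm2 and Tyms. They were present for Mcm6 and absent for Mcm2 and Rrm1, which did not pass. A match describes the letters in this window, not binding. Absence of these exact words does not mean that the promoter lacks an E2F site, since variants of the words were not searched.

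**Figure D1:**
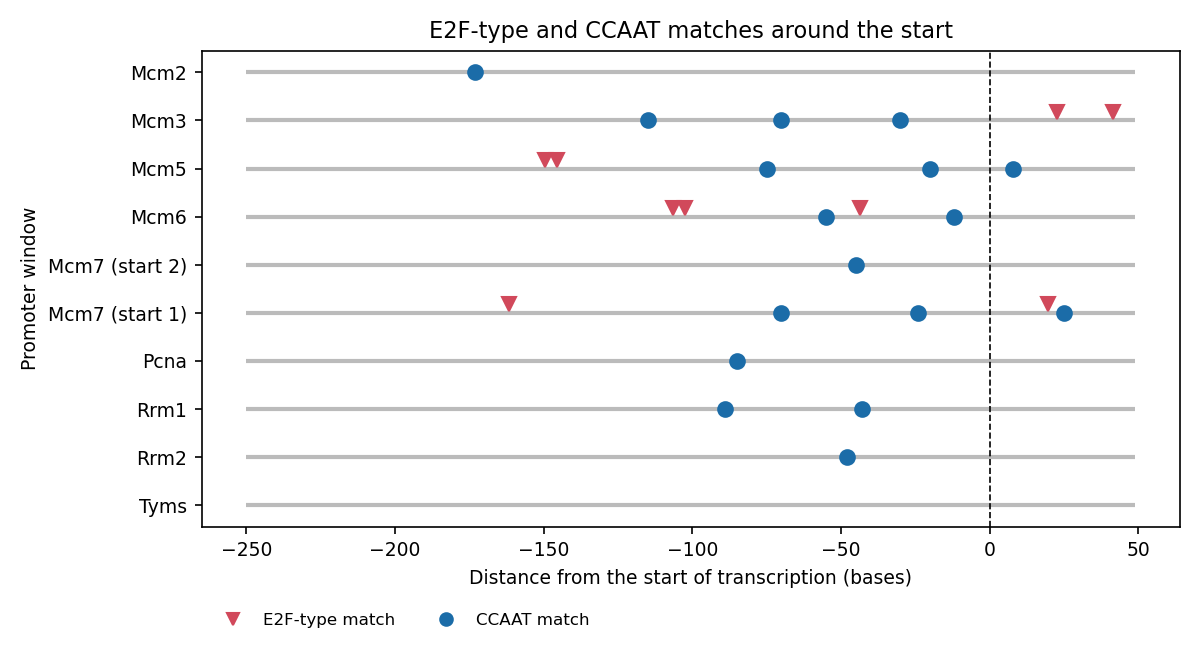
Positions of E2F-type words (red triangles) and of CCAAT (blue circles) on either strand in the promoter windows of 9 genes; the x axis is the distance in bases from the start of transcription, and each grey line is 1 window. The 3 E2F-type words of Mcm6 begin 110, 106 and 47 bases upstream, those of Mcm3 begin 19 and 38 bases after the start, and the lines of Pcna, Rrm1, Rrm2, Mcm2 and Tyms carry none.

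Replication and nucleotide genes lay on the negative side, with mean differences of less than 2-fold over all mice. Without mouse 3 the means of Mcm3 and Pcna were past 2-fold, at -1.08 and -1.04, and the largest single value was that of Mcm3 in mouse 1, 3.14-fold. Of the 8 tested, 5 passed the test, all negative: Pcna, Mcm3, Rrm2, Mcm7 and Tyms. The test was limma's, of the mean ratio against 0 on all 11629 probes, with a threshold of 0.05 on the p after Benjamini-Hochberg adjustment over all of them. Of the tested probes 24.4% passed, 12.3% with a negative mean and 12% with a positive one. The median of the 8 mean ratios was -0.52, against -0.003 over all tested probes. The count depends on single mice: it was 1, Pcna alone, without mouse 1, mouse 2 or mouse 6, 2 (Pcna and Mcm2) without mouse 4, 2 (Pcna and Rrm2) without mouse 5, and 6 without mouse 3. The share of all probes that passed in those settings was 20.3%, 11.8%, 26.1%, 11.4%, 17.6% and 14.7% without mouse 1, 2, 3, 4, 5 and 6 in turn, so without mouse 1 the members' count fell from 5 to 1 while the share of all probes fell from 24.4% to 20.3%. With variances not moderated across probes Pcna alone passed too.

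The clamp gene Pcna had ratios of -1.26, -0.99, -0.31, -1.34, -0.53 and -1.07 in mice 1 to 6. All 6 mice were negative, mouse 3 least and mouse 5 next. A negative value on every array was found for 14.3% of the 8663 probes measured on all 6. The mean was -0.92 ± 0.41 (SD, n = 6), or 1.89-fold (limma, adjusted p = 0.00678; 95% interval of the mean -1.25 to -0.59). Without mouse 3 it was -1.04. Pcna was the one member that passed in every alternative run. Its ratio lay between percentiles 0.855 and 6.20 of its array in every mouse, or between 93.8 and 99.1 with the sign turned, so it lay toward the same end of each array, that of mouse 3 included.

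Among the helicase subunits, Mcm3 had the largest difference and the largest spread. Its ratios were -1.65, -1.36, 0.34, -1.09, -0.54 and -0.79 in mice 1 to 6, negative in 5 of 6 mice. Mouse 3 stood on the positive side, at percentile 96.2 of its array, while the other mice lay between percentiles 0.948 and 5.23. The mean was -0.85 ± 0.70 (SD, n = 6), 1.80-fold apart (limma, adjusted p = 0.0392). Without mouse 3 it was -1.08 (limma, adjusted p = 0.00498), and it lost its call without any other single mouse and with quantile-normalized arrays (limma, adjusted p = 0.0544).

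Mcm7, another subunit of the ring, had ratios of -0.80, -0.83, 0.22, -0.63, -0.50 and -0.72. Of the 6 mice, 5 were negative and mouse 3 alone lay on the other side, at percentile 90.1 of its array. The mean was -0.54 ± 0.39 (SD, n = 6), 1.46-fold apart (limma, adjusted p = 0.0264), and -0.69 without mouse 3 (limma, adjusted p = 0.00121). Without any other single mouse the call was lost.

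Mcm2 and Mcm6 did not pass the test. Mcm2 had no value in mouse 3 and was at -0.54, -0.53, 0.01, -0.15 and -0.33 in mice 1, 2, 4, 5 and 6, with a mean of -0.31 ± 0.24 (SD, n = 5; limma, adjusted p = 0.0554; 95% interval -0.53 to -0.085). Mice 1 and 2 were lowest, and mouse 4, low for the other members, was at 0. Mcm2 passed without mouse 4, with arrays scaled to a common spread, and without the array of mouse 3, on which it has no value, so that there only the fit of the other probes changed. Mcm6 was at -0.03, -0.17, 0.09, -0.31, 0.11 and -0.20, on both sides of 0, with a mean of -0.085 ± 0.17 (SD, n = 6; limma, adjusted p = 0.362). Its 95% interval was -0.23 to 0.065, and without mouse 3 its mean was -0.12.

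Of the 2 subunits of ribonucleotide reductase, the small one passed and the large one did not. Rrm2 was at -0.97, -0.88, -0.06, -0.69, -0.08 and -0.66 in mice 1 to 6. All were negative, but mice 3 and 5 lay near 0, at percentiles 33.2 and 35.3 of their arrays, against 2.96 to 4.65 in the others. The mean was -0.56 ± 0.39 (SD, n = 6), 1.47-fold apart (limma, adjusted p = 0.0249), and -0.65 without mouse 3. The call was lost without mouse 1, 2, 4 or 6. Rrm1 had values in 4 mice, -0.47, 0.23, -0.47 and -0.10 in mice 1, 3, 4 and 5, with a mean of -0.20 ± 0.34 (SD, n = 4; limma, adjusted p = 0.313; 95% interval -0.54 to 0.13). Without mouse 3 it was -0.35 over 3 mice (limma, adjusted p = 0.064). Mice 2 and 6, in which Rrm2 was clearly negative, had no value for Rrm1, so the subunits can be set side by side in 4 mice only.

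Tyms was at -0.98, -0.90, -0.004, -0.74, -0.17 and -0.20 in mice 1 to 6. Mice 1, 2 and 4 were low, at percentiles 2.76 to 3.04 of their arrays, while mice 5 and 6 lay at percentiles 22.3 and 19.6 and mouse 3 at the middle of its array. The mean was -0.50 ± 0.42 (SD, n = 6), 1.41-fold apart (limma, adjusted p = 0.0442). A separate probe of the Tyms pseudogene Tyms-ps was at 0.002 ± 0.068 (SD, n = 5; limma, adjusted p = 0.98), so the probes of Tyms and Tyms-ps gave different ratios. Their sequences were not compared, and a ratio near 0 does not show whether Tyms-ps RNA was present. Without mouse 3 Tyms was at -0.60 (limma, adjusted p = 0.0238), and without any other single mouse it lost its call.

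**Figure D2:**
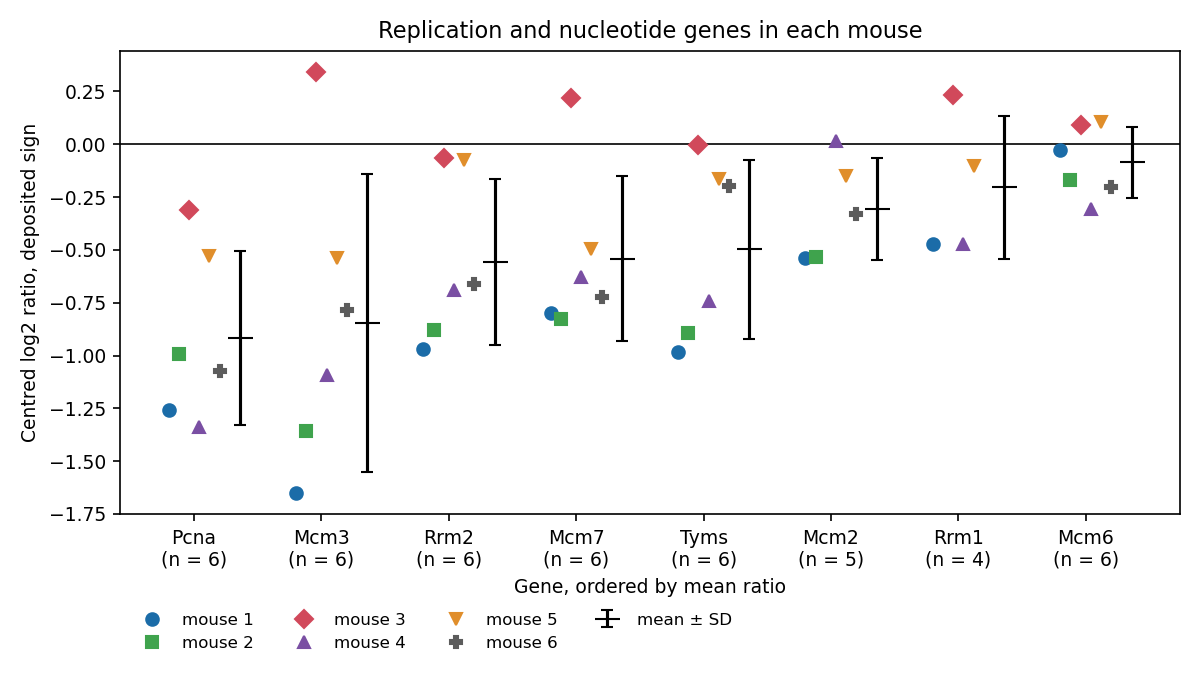
Centred log2 ratio (y axis, deposited sign) of the 8 tested genes, ordered by mean; symbols are single mice and the black bars are the mean ± SD over the mice with a value. Pcna, at the left, is negative in all 6 mice, and mouse 3 (red diamonds) has the highest value in each gene in which it was measured except Mcm6, where mouse 5 is at 0.11.

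The members varied between mice in a common way. Over the 6 genes measured on all arrays the mean ratio was -0.95, -0.85, 0.05, -0.80, -0.28 and -0.61 in mice 1 to 6. Mouse 3 was close to 0 and mouse 5 lay between it and the rest. In mouse 3, 3 of the 7 members with a value were negative, against all with a value in mice 1, 2 and 6 and 7 of 8 in mice 4 and 5. Over the 15 pairs of these 6 genes, Pearson's r across the 6 mice ran from 0.49 to 0.93 with a median of 0.81, a description without a test, since all pairs share the arrays and the pool. Without mouse 3, over 5 mice, it ran from 0.22 to 0.95 with a median of 0.69. Over all 6 mice the median r was 0.178 over pairs of the 1265 probes that passed on the negative side and had a value on all arrays. Those probes were not matched to the members in size or spread of ratio. The median SD was 0.39 for the members and 0.14 for all tested probes. Genes outside the replication lists can follow the same profile: Hbegf and Ola1, picked below for their closeness, had r of 0.99 with the members' mean. The labels name no batch. The part of the narrow spread of array 3 in these patterns was not tested.

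The 15 pairs were compared within mice by an exact permutation test that flips the sign of the difference in each mouse (two-sided), whose smallest possible p with 6 mice is 0.0312. Pcna was lower than Mcm7, Rrm2, Tyms and Mcm6 in 6 of 6 mice, by 0.38 ± 0.25, 0.36 ± 0.19, 0.42 ± 0.28 and 0.83 ± 0.29 (SD, n = 6), and Rrm2 was lower than Mcm6 in 6 of 6 by 0.47 ± 0.31. These 5 pairs reached the smallest p (exact permutation p = 0.0312, adjusted p = 0.0938 over the 15), and 0 of 15 passed after adjustment. With 6 mice a pair could pass after adjustment only if most of the 15 were at the smallest p. The lack of passing pairs therefore says little about the differences. Mcm3 and Mcm7 differed by 0.31 ± 0.37 (exact permutation p = 0.156, adjusted p = 0.213) and Rrm2 and Tyms by 0.06 ± 0.20 (exact permutation p = 0.844, adjusted p = 0.875), which does not show that they are equal. Tyms and Mcm6, next to each other in the order of these 6 means, differed by 0.41 ± 0.37 with Tyms lower in 5 of 6 mice (exact permutation p = 0.0625, adjusted p = 0.104). Pairs with Mcm2 or Rrm1, which lack values in some mice, were not tested. Without mouse 3 the differences of Pcna from Mcm7, Rrm2, Tyms and Mcm6 were 0.34, 0.38, 0.44 and 0.92, each with Pcna lower in 5 of 5 mice, where the smallest possible exact permutation p is 0.0625.

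**Figure D3:**
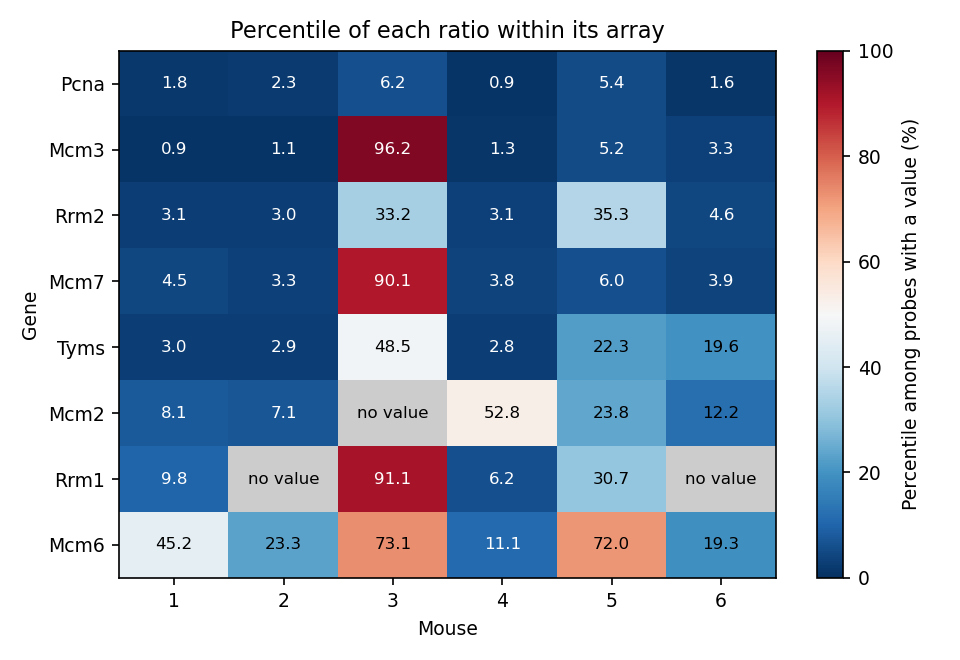
Percentile of each gene's ratio among the probes with a value on the same array (color and number, 0 lowest, 100 highest), with genes in rows ordered by mean ratio and mice in columns; grey cells have no value. Pcna stays at or below percentile 6.20 in all 6 mice, Mcm3 and Mcm7 change from below percentile 6 to above 90 in mouse 3, and Rrm2 and Tyms are nearer the middle in mouse 5.

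Other genes of replication, nucleotide supply, the passage from G1 to S phase and mitosis were counted from lists. The lists were chosen with earlier results of these data known. Over 140 genes in 5 lists, 93 were tested, and 32 negative and 5 positive genes passed, with a median of -0.18. Of the 32 negative genes, 10 are mitotic. The share that passed was 40% for origin, 37.5% for fork, 36.4% for supply, 22.2% for G1/S and 71.4% for mitotic genes. Of all tested probes 24.4% passed. Their count of 37 was 14, 13 and 19 without mice 2, 4 and 6, and 43 without mouse 3. In the list of origin licensing and initiation, 5 of 15 tested genes passed with a negative mean and 1 with a positive one (median -0.19), and 6 and 1 without mouse 3. The largest ratios were those of the helicase activators Gins2 at -1.03 ± 0.81 and Cdc45 at -0.93 ± 0.54 (SD, n = 6), of Mcm10 at -0.83 ± 0.47 (SD, n = 5) and of the checkpoint and initiation protein Topbp1 at -0.57 ± 0.29 (SD, n = 6; limma, adjusted p = 0.0323, 0.0126, 0.0182 and 0.01). Gins2 and Cdc45 act with the MCM ring as the replicative helicase, and both lay near or above 0 in mouse 3, at 0.26 and -0.003. Without mouse 3 Gins2, Cdc45 and Topbp1 were at -1.29, -1.12 and -0.66. A second probe of Gins2 with values on 4 arrays was at 0.01, so its probes disagree. Orc5, a subunit of the origin recognition complex, was positive at 0.15 (limma, adjusted p = 0.0361).

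Of 24 tested genes of polymerases, clamp loading, ligation and the fork, 8 passed with a negative mean and 1 with a positive one (median -0.08), and 10 and 0 without mouse 3. Negative means, past the threshold or not, were found for 19 of the 24. The histone chaperone Asf1b was at -0.95 ± 0.70, the flap endonuclease Fen1, which trims Okazaki fragments, at -0.84 ± 0.57, and the DNA polymerase epsilon subunits Pole2 and Pole at -0.73 ± 0.37 and -0.48 ± 0.35 (SD, n = 6 each; limma, adjusted p = 0.0267, 0.0213, 0.0094 and 0.027). Like Mcm3, Asf1b and Fen1 were positive in mouse 3 alone, at 0.22 and 0.10. Without mouse 3 Asf1b, Fen1, Pole2 and Pole were at -1.18, -1.03, -0.84 and -0.60. A second probe of Pole2, measured on all arrays too, was at -0.02 and did not pass. The positive gene was Pola2, a subunit of the primase-polymerase, at 0.17 (limma, adjusted p = 0.0434), and it did not pass without mouse 3 (limma, adjusted p = 0.083).

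The list of deoxynucleotide and folate-linked supply had 6 genes that passed with a negative mean and 2 with a positive one among 22 tested (median -0.15), and 8 and 2 without mouse 3. Means were negative in 14 of the 22. Beside Rrm2 and Tyms, the lowest were Mthfd2, a mitochondrial folate enzyme, at -1.34 ± 0.58, the salvage enzyme Dck, deoxycytidine kinase, at -1.06 ± 0.49, Ctps, CTP synthase, at -0.93 ± 0.38 and Adss, a purine enzyme, at -0.69 ± 0.51 (SD, n = 6 each; limma, adjusted p = 0.0061, 0.00711, 0.00552 and 0.0275). Mthfd2, Dck and Ctps were negative in 6 of 6 mice and were at -1.04, -1.02 and -0.75 in mouse 5, where Rrm2 was at -0.08. Without mouse 3 Mthfd2, Dck, Ctps and Adss were at -1.53, -1.25, -1.06 and -0.78. The positive genes were the mitochondrial enzymes Tk2, a thymidine kinase, at 0.23 and Dhodh, of pyrimidine synthesis, at 0.21 (limma, adjusted p = 0.0318 and 0.0166). The other probe of Dhodh was at -0.06 and did not pass.

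Regulators of the passage from G1 to S phase had 3 genes that passed with a negative mean and 1 with a positive one among 18 (median -0.18), and 4 and 1 without mouse 3. These 4 of 18, 22.2%, are near the 24.4% of all probes, although 16 of the 18 means were negative. The genes that passed were the transcription factor Myb at -0.63 ± 0.43 (SD, n = 6), E2f1 at -0.38 ± 0.20 (SD, n = 5) and its partner Tfdp1 at -0.35 ± 0.18 (SD, n = 6), against the kinase inhibitor Cdkn1c at 0.26 ± 0.11 (SD, n = 6; limma, adjusted p = 0.0215, 0.0191, 0.0124 and 0.0113). Without mouse 3 Myb, E2f1 and Tfdp1 were at -0.71, -0.43 and -0.38. E2f1, Tfdp1 and Myb were least negative in mouse 1, at -0.17, -0.14 and -0.14, where Mcm3 was lowest, so their order over mice is not that of the members. Of 14 tested mitotic genes 10 passed, all with negative means (median -0.93), and 13 of the 14 means were negative. Cdk1, Ube2c, Ccnb2 and Aurka led them at -1.99 ± 1.24, -1.39 ± 0.67, -1.37 ± 0.80 and -1.23 ± 0.67 (SD, n = 6 each; limma, adjusted p = 0.0159, 0.00772, 0.013 and 0.011), and each mean lay farther from 0 than that of any member. Without mouse 3 they were at -2.43, -1.61, -1.65 and -1.46. The 4 mitotic genes that did not pass, Mki67, Plk1, Ttk and Kif11, had means of -0.16, -0.12, -0.01 and 0.05. Without mouse 3 these were -0.22, -0.16, -0.0004 and 0.04, and Mki67 passed (limma, adjusted p = 0.0373).

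**Figure D4:**
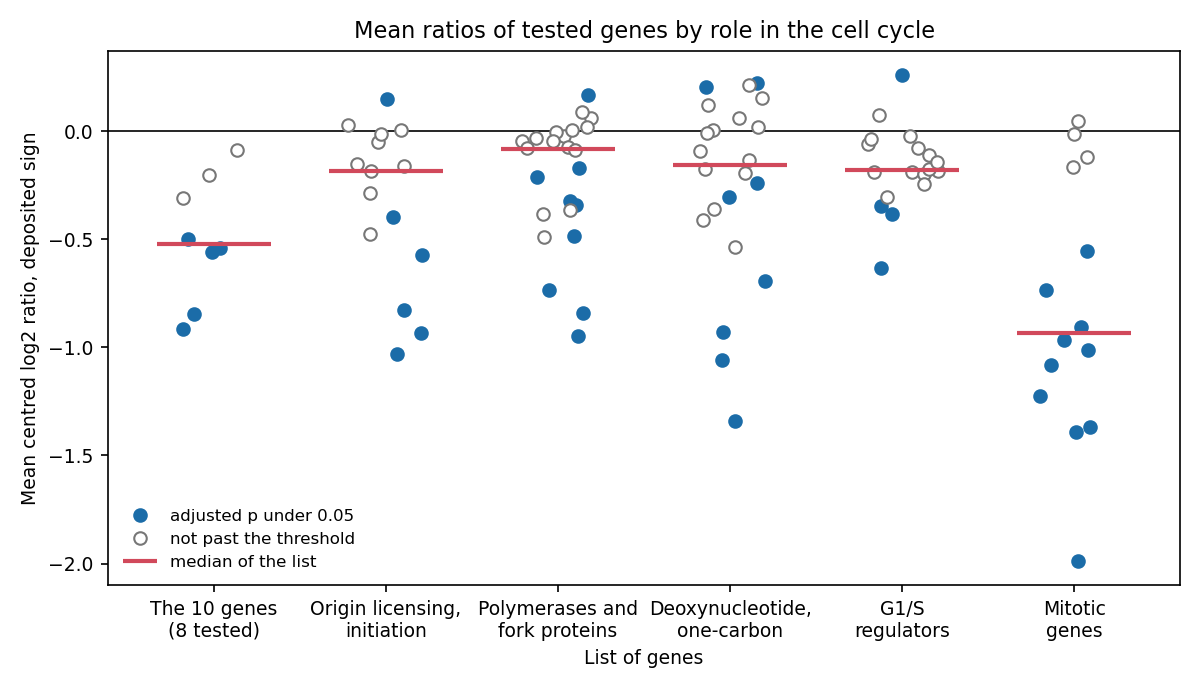
Mean centred log2 ratio (y axis, deposited sign) of every tested gene in the member list and 5 other lists; filled points passed the test, open points did not, and the red line is the median of the list. The medians are -0.52 for the members, between -0.19 and -0.08 for the lists of origin, fork, supply and G1/S genes, and -0.93 for mitotic genes.

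The probes whose profile over the mice was most like the mean of the 6 fully measured members were found by the root mean square difference over the 6 arrays among 7810 named probes. They were Hbegf (0.0519), Cenpp (0.0871), Ola1 (0.0876), Tmprss4 (0.0987), Tpsg1 (0.103), Ifi30 (0.104), Pole (0.106) and Pira1 (0.107), in log2 units. By the same measure Rrm2 was 0.109, Mcm7 0.153 and Mcm6 0.559 from the mean that they help to form. Hbegf, an epidermal growth factor family ligand, was at -0.89, -0.82, 0.01, -0.80, -0.38 and -0.56 in mice 1 to 6. Without mouse 3, 5 of these 8 were again among the 8 nearest. Of the 8, Pole is in a replication list, and Cenpp is a centromere protein.

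In whole lung RNA, a change in how many cells of a type are present and a change in RNA per cell cannot be told apart. Marker lists of other cells are given beside these ratios, to be read against the 24.4% of all probes that passed. Mucous cell markers had 4 of 7 tested genes called, all negative, with a mean per mouse from -2.28 to 0.14, or to -1.46 without mouse 3. Markers of alternatively activated macrophages had 3 of 5, all negative, from -2.27 to 0.25, or to -1.17 without mouse 3. Over all mice, shares under that of all probes were found for macrophage, T cell and B and plasma cell markers. With 6 tested genes in each of these lists, 1 call more or less moves the share widely. Macrophage markers had 1 of 6 called, negative (mean per mouse from -0.85 to 0.21), and T cell markers 1 of 6, positive (-0.57 to 0.26). The mean of -0.85 was that of mouse 1, where Aif1 was at -3.60 and the other macrophage markers lay between -0.93 and 0.60. B and plasma cell markers had 0 of 6 (-0.52 to 0.25). Without mouse 3 the means per mouse of these lists ran from -0.85 to -0.20, -0.57 to 0.09 and -0.52 to -0.20. Called genes were then 2 negative for macrophages, 1 negative and 1 positive for T cells, and 1 negative for B and plasma cells. In that setting 26.1% of all probes passed, so the macrophage and T cell shares were above it. Club cell markers had 4 of 5 called, all positive (0.24 to 1.60), endothelial markers 3 of 5, all positive (0.10 to 1.10), and alveolar type 2 markers 2 negative and 1 positive of 4 (-0.34 to 0.31). Heart muscle and adipocyte markers had 5 of 7 and 3 of 5, all positive, with means per mouse from 0.20 to 1.79 and from 0.62 to 2.02. Without mouse 3, 5 club cell, 4 endothelial, 6 heart muscle and 3 adipocyte markers were called, all positive. Alveolar type 2 markers then had 1 negative and 1 positive. The lowest means per mouse were then 0.77 for club cell, 0.42 for heart muscle and 0.85 for adipocyte markers. The part of any of these in the ratios of the replication genes was not tested. Ratios do not show the level of a marker.

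Probe position was checked because probes 6, 18 or 24 numbers apart in the table had correlated mean ratios (r = 0.133, 0.102 and 0.106 over all probe pairs, against 0.0458 for adjacent numbers). At those distances no stronger probe of the same sign lay beside Pcna, Mcm3, Mcm7, Rrm2 or Tyms. The means of these genes lay between percentiles 1.38 and 4.56 of all tested probes, so few probes could be stronger. This search therefore cannot decide whether position had a part in their ratios. Mcm2 had Ldhc at -0.44 and H2-DMa at -0.52, Mcm6 had Il3ra at -0.09 and Trim25 at -0.40, and Rrm1 had an unnamed probe at -0.56. The part of probe position in the ratio of any member was not tested.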

How the data were processed

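Lung RNA of 6 OVA mice was measured against 1 control pool on two-colour arrays, 1 array per mouse. The table holds the log ratios that the authors deposited, 17280 probes by 6 arrays, read here as log2. The scanner, the background correction, the normalization, the dyes, the direction and the log base are not stated by any label or header used. The platform annotation gave 1 symbol for 14722 probes, several for 1 and none for 2557. Symbols of 14445 probes were updated through the GRCm38.p6 gene table, used for names alone, and 277 were kept.

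Left out were 170 rows that repeat 10 sequences and 4 plant control rows. Each array was centred on the median of the probes measured on all arrays. Probes with a value on at least 4 arrays were fitted in limma 3.58.1 (R 4.3.3) by a model of the mean alone, with moderated variances and two-sided p-values, adjusted over all 11629 probes (Benjamini-Hochberg). Since the pool is a single control sample, the spread between control mice does not enter the test. Dye bias of a gene would remain in its ratio, because no dye swap is known. Precision is limited by the number of arrays. A gene with several probes is counted by the probe with values on most arrays, then the lowest number.

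The fit was tested on simulated data with independent normal noise at the SD of each probe. Of 200 probes changed 1.5-fold, 82.5% passed, with 12 false calls. The 200 were drawn at random from all tested probes, whose median SD was 0.14 against 0.39 for the members. The 82.5% therefore cannot be read as the recovery for the members. The simulation held no shared array effect and no array like that of mouse 3, so it cannot show how such an array affects the calls. Members and lists were chosen with earlier results of these data known. Named genes are all members, up to 4 genes of each list past the threshold with the largest mean ratio, genes past it on the side opposite to most of their list, the 8 named probes nearest the members' mean profile, and Clca1, Muc5ac, Retnla and Arg1. Tyms-ps, Aif1, the 4 mitotic genes that did not pass, second probes and probes at a set distance were named after their values were seen. The alternatives tried were uncentred values, scaling or quantile normalization between arrays, another minimum of arrays, robust or unmoderated variances, array weights, genes in place of probes, a threshold of 0.01 and leaving out each mouse. Plots were made in matplotlib 3.10.9 (Python 3.11.15).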

Additional observations from a re-analysis of the deposited data

Results flagged for a closer look

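The highest mouse of Mcm7, mouse 3 at 0.22, lay far from the others: its gap to the next mouse was 0.683 of the range of the 6 mice, above the limit for this number of samples. Of the 8 genes tested for a highest or lowest mouse that stands apart, this was the only one past the limit, and about 1 group in 20 passes it when nothing differs. Mouse 3 was on the positive side in Mcm3, Mcm6 and Rrm1 too.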

How the results depend on the processing

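No member changed sign in any alternative. Across the alternatives that keep all mice, the count of member genes past the threshold was 1 with unmoderated variances and 1 at an adjusted p of 0.01, against 5, and between 4 and 6 in the others. Of the pathway genes 12 and 5 passed under those settings against 37, and of all probes 1444 and 746 against 2832. Leaving out each mouse gave 1 to 6 member genes, 13 to 43 pathway genes and 1325 to 3036 probes. The mean ratio of Pcna stayed between -1.04 and -0.83 over all alternatives, with adjusted p from 0.00253 to 0.0377 in limma. Of the values of single members under an alternative, 95 kept their side of the threshold, 28 lost the call and 3 gained it. Scaling or centring moved the median of all genes by under 0.01. No paired analysis was possible because there is 1 group and every mouse was set against the same pool. Blank values, 2 of 8 tested members with 4 or 5 arrays and 2 members with none, limit what can be said of Mcm2, Rrm1, Mcm4 and Mcm5.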
